A study of Mus musculus with 30 samples.

Results

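The genes of MHC class II antigen presentation were followed in spinal cord microglia and astrocytes during experimental autoimmune encephalomyelitis (EAE), a mouse model of multiple sclerosis. The members were the 7 protein-coding genes H2-Aa, H2-Ab1, H2-Eb1, Cd74, H2-DMa, H2-DMb1 and Ciita. They were chosen by name and found by gene identifier among the 30952 genes of the expression table. All 7 were found, and all 7 entered every test.

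MHC class II molecules show peptides from endocytosed proteins to CD4+ T cells. H2-Aa and H2-Ab1 encode the alpha and beta chains of the I-A molecule, and H2-Eb1 encodes the beta chain of I-E. The alpha chain gene of I-E, H2-Ea, was not found by symbol, only H2-Ea-ps. H2-Eb1 RNA is therefore no measure of I-E molecules here. Cd74 encodes the invariant chain, which occupies the peptide groove during transport to the endosome. There, cathepsin S (Ctss) trims the invariant chain, and the H2-DM heterodimer (H2-DMa with H2-DMb1 or H2-DMb2) exchanges its last fragment for peptide. Ciita is the transactivator of the whole set. It does not bind DNA itself but docks on RFX, CREB and NF-Y at the X and Y boxes of these promoters, and interferon-gamma induces it, in part through Irf1. Professional antigen-presenting cells carry the set constitutively, whereas resting microglia and astrocytes are known for little surface MHC class II.

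The libraries came from female C57BL/6 mice and formed 3 groups in each cell type. Naive mice (n = 4) were not immunized and are listed with no treatment. EAE-vehicle mice (n = 6) were immunized with the MOG35-55 peptide and, from a clinical score of around 1, received the carrier 20% Captisol by oral gavage for 3 days. EAE-RIPK1inh-1 mice (n = 5) were immunized and dosed on the same plan with 50 mg/kg of RIPK1inh-1, an inhibitor of the kinase RIPK1. The study's methods give BID dosing for both EAE groups, so 50 mg/kg was the single dose and not the daily total. Mice were immunized at 8 to 10 weeks of age in the study's general protocol for this model. In that protocol the peptide came in complete Freund's adjuvant, and pertussis toxin was injected as well. Microglia were sorted as CD11b+CD45intCX3CR1+ cells and astrocytes as GLAST+CD11b-CD45-CD140a- cells. The design text counts 4, 6 and 5 mice, so both cell types of a group came from the same mice, but no label ties a microglia library to an astrocyte library of 1 mouse. Naive mice differed from vehicle mice in immunization with its adjuvant and toxin, disease and gavage together.

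The values are log2 FPKM, which is a level per transcript length, after a normalization that gave each of the 30 libraries the same ordered values. The depth of the libraries is unknown. A level therefore records a gene's place within its library, and no gene can exceed the ceiling of 15.34. Between 8710 and 20398 genes carried signal in the microglia libraries and between 6728 and 22981 in the astrocyte libraries. Below that number, genes without signal received small values that follow their row in the table, up to 2.74 in EAE-vehicle astrocyte library 1, so low values are weak evidence. Markers of microglia and of astrocytes separated the sorts. Library means over 10 microglia markers ran from 7.18 to 10.6 in the microglia sort against 0.87 to 3.45 in the astrocyte sort, and means over 8 astrocyte markers from 7.85 to 9.39 in astrocytes against 0.99 to 2.12 in microglia. The descriptions of the EAE-vehicle libraries numbered 1 carry a code from the other cell type's run. In these libraries the markers followed the titles, with an astrocyte marker mean of 7.85 in the astrocyte library and 1.80 in the microglia library. In sorted bulk RNA, fewer cells of a type and less RNA per cell cannot be told apart.

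The members on chromosome 17 number 5 and lie in its MHC region (GRCm38), namely H2-DMa (ENSMUSG00000037649, chr17:34119541-34139101), H2-DMb1 (ENSMUSG00000079547, chr17:34153072-34160230), H2-Ab1 (ENSMUSG00000073421, chr17:34257689-34269419), H2-Aa (ENSMUSG00000036594, chr17:34282744-34287823) and H2-Eb1 (ENSMUSG00000060586, chr17:34305867-34316674). H2-Aa is on the minus strand and the others are on the plus strand. Ciita (ENSMUSG00000022504) is at chr16:10480059-10528418 and Cd74 (ENSMUSG00000024610) at chr18:60803848-60812652, both on the plus strand. Of the 9535 exonic bases of Ciita, 329 are shared with Dexi on the opposite strand, and of the 3448 of H2-DMa, 360 are shared with Brd2 on the opposite strand. Counting is not stated to use strand, so reads in these bases cannot be assigned to 1 gene. Brd2 averaged 3.99 ± 1.21 in naive and 3.71 ± 0.73 in EAE-vehicle microglia, below every H2-DMa value there. In naive astrocytes Brd2 was at 3.55 ± 0.65 and H2-DMa at 0.75 ± 1.24, and in EAE-vehicle astrocytes Brd2 was at 3.18 ± 1.64 and H2-DMa at 3.77 ± 2.05.

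The promoters of H2-Aa and H2-Eb1, members that rose in microglia from low naive levels, are shown with the letters that match X and Y box motifs. The sequences are RefSeq's (GRCm38.p6) and hold the 120 bases before the transcription start, 5′ to 3′ on the gene's own strand, chr17:34287824-34287943 (minus) for H2-Aa and chr17:34305747-34305866 (plus) for H2-Eb1. Capitals mark matches to the Y box CCAAT, the X1 box (AGCAACTGATG in H2-Eb1), the cyclic AMP element TGACGTCA or the RFX motif GTTGCNA, each searched on both strands.

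H2-Aa: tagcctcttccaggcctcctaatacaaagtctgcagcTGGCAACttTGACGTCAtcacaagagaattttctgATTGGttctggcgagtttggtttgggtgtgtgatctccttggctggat
H2-Eb1: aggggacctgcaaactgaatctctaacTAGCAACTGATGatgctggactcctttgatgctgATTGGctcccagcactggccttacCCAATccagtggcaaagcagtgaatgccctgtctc

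In H2-Aa the RFX match began at -83, the cyclic AMP element at -74 and the reversed Y box at -48, and the X1 pattern had no match. In H2-Eb1 the RFX match began at -93 and overlapped the X1 box at -92, with a reversed Y box at -59 and a further CCAAT at -35. H2-DMb1 held the X1 box AGTAACTGATG at -95 and a reversed Y box at -61. Of 2 windows of H2-DMa, 1 held no match and the other held a Y box at -198. H2-Ab1, Cd74 and Ciita had no entry in the table. Over the 32851 RefSeq windows of 300 bases, 37.4% held the Y box, 0.968% the X1 box, 1.79% the cyclic AMP element and 10.4% the RFX motif. A match is a description of letters in the window and not a measured site.

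The first question was whether EAE changed these genes in microglia. All 7 were higher in EAE-vehicle than in naive microglia, and the groups did not overlap for any of them. Calls required more than a 1.5-fold difference together with unadjusted p below 0.05. By that rule 6.13% of the 28958 genes tested were called higher, and 2.93% were higher with no overlap between groups. The adjusted p (limma, Benjamini-Hochberg over all genes tested) was at most 0.000222 for the members and under 0.05 in the upward direction for 2.37% of all genes, and the exact two-sided permutation test gave 0.00476 for each, the smallest p that 4 against 6 samples allow. The median log2 fold change was 8.25 for the members and -0.02 for all genes tested. Centring the libraries on 2305 genes with signal in all of them, chosen after seeing the data, moved the latter to -0.22 and the genes called higher from 1775 of 3473 to 1344 of 4346, and left the members called.

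RNA of the class II chain genes among the members rose in microglia. H2-Aa was at 0.36, 1.80, 0.94 and 2.36 in naive microglia and at 10.85 (lowest), 11.40 (median) and 11.93 (highest) in EAE-vehicle. Its log2 fold change was 10.03 (95% interval 9.31 to 10.74). H2-Eb1 was at 1.98, 1.47, 0.92 and 2.13 in naive microglia and at 10.31, 10.57 and 10.97 in EAE-vehicle, a log2 fold change of 8.97 (8.38 to 9.57). Within every naive microglia library H2-Ab1 stood above its partner chain H2-Aa, with H2-Aa minus H2-Ab1 between -5.12 and -2.77 on the log2 scale.

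H2-Ab1 was at 5.48, 5.02, 4.26 and 5.14 in naive microglia and at 12.55 (lowest), 13.31 (median) and 13.51 (highest) in EAE-vehicle, a log2 fold change of 8.25 (7.57 to 8.92). H2-Aa minus H2-Ab1 was -3.61 ± 1.04 (SD, n = 4) in naive and -1.83 ± 0.17 (n = 6) in EAE-vehicle microglia, a difference that was not tested. H2-Ab1 was the gene in place 6 to 12 of the EAE-vehicle microglia libraries, where H2-Aa held places 18 to 31 and H2-Eb1 places 29 to 42.

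Cd74 had the highest level of the members in EAE microglia, and in naive microglia it stood below the H2-DM genes. It was at 6.77, 7.55, 6.95 and 6.52 in naive microglia, places 385 to 877, and at the ceiling of 15.34 in all 6 EAE-vehicle libraries, where it was in place 1. The log2 fold change of 8.39 (7.86 to 8.92) is thus limited by the ceiling. The SD of 0 in this group is that of the ceiling and not of the mice.

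The H2-DM genes started high and rose least. H2-DMa was at 8.29, 8.52, 8.54 and 8.39 in naive microglia and at 9.47 (lowest), 9.70 (median) and 9.97 (highest) in EAE-vehicle. Its log2 fold change was 1.31 (1.01 to 1.61), or 2.47-fold. H2-DMb1 was at 7.91, 7.81, 7.79 and 7.44 and then at 8.71, 9.00 and 9.29, a log2 fold change of 1.29 (0.95 to 1.63), or 2.44-fold. Naive microglia thus already carried the peptide exchange genes above H2-Ab1, with H2-DMa higher than H2-Ab1 by 2.81 to 4.28 in each of the 4 libraries. In EAE-vehicle the order was inverted, with H2-DMa minus H2-Ab1 between -4.04 and -2.92 in the 6 libraries. With all 30 libraries in 1 fit neither H2-DM gene was called (adjusted p = 0.729 and 0.606, limma), since the SE was then 0.75 and 0.66.

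Ciita, the transactivator, was detected in 2 of 4 naive microglia libraries, at 0.25 and 0.24, and listed at 0 in the other two. It was at 3.78 (lowest), 4.02 (median) and 4.40 (highest) in EAE-vehicle, a log2 fold change of 3.97 (3.07 to 4.86). Its level stayed the lowest of the members in every group of microglia. Dexi, whose exons overlap Ciita, was at 2.16 ± 0.36 in naive and 2.80 ± 0.53 in EAE-vehicle microglia.

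**Figure D1:**
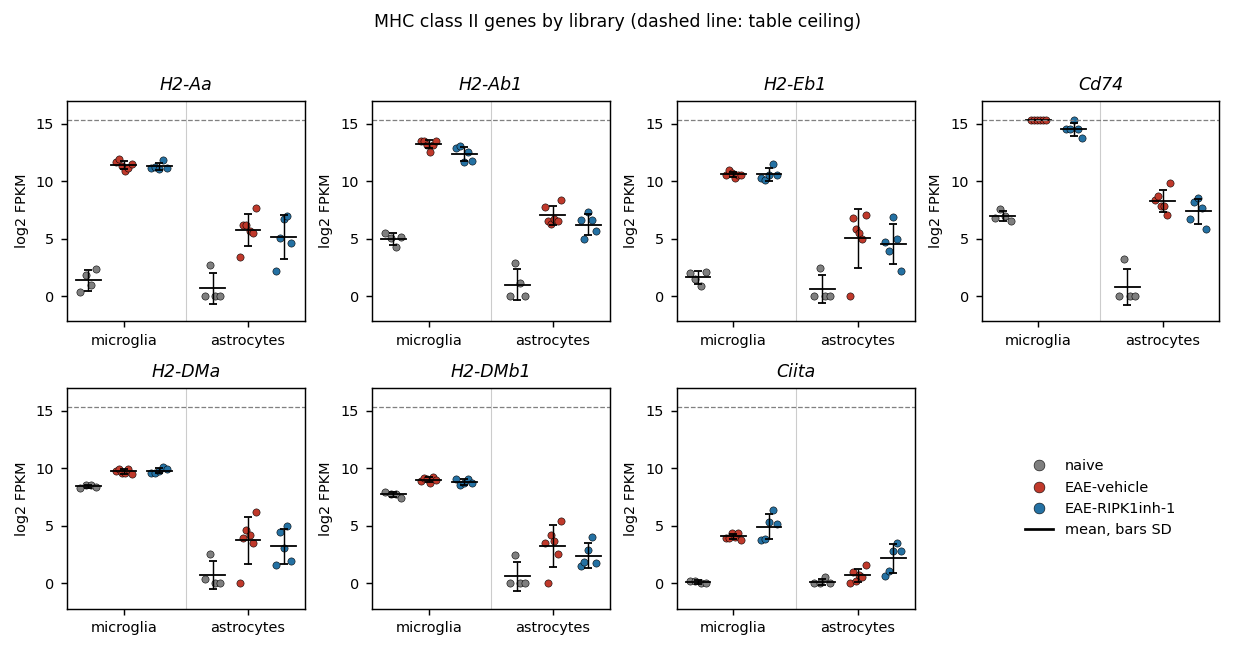
Level (log2 FPKM) of each member in each of the 30 libraries, grouped by cell type and treatment (4 naive, 6 EAE-vehicle and 5 EAE-RIPK1inh-1 libraries in each cell type). Points are libraries, long lines group means, bars SD and the dashed line the ceiling of 15.34. Naive microglia sit apart below both EAE groups for each member, Cd74 lies on the ceiling in all 6 EAE-vehicle microglia libraries, and astrocyte values spread widely.

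Markers of other cells were followed in the same microglia libraries. Of 9 monocyte and neutrophil markers 3 were called higher and the median log2 fold change was 1.48, with library means of 1.92 to 6.47 in naive and 3.07 to 6.95 in EAE-vehicle microglia. All 10 microglia markers were called lower (median -2.51). Of 7 dendritic cell markers 2 were called higher, with library means of 0.44 to 0.94 in naive and 1.06 to 1.32 in EAE-vehicle, and Cd209a had no signal in EAE-vehicle. No T cell marker of 9 and no B cell marker of 6 was called higher, and library means stayed at or below 1.25. The part of these cells in the rise was not tested.

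The rest of the pathway did not rise as a block in microglia. Of 25 further genes of class II processing, peptide loading and transcription, 4 were called higher and 4 lower (6.13% and 5.86% of all genes), and their median log2 fold change was -0.11. H2-DMb2, the alternative DM beta chain, rose by 2.56 ± 0.40 (SE, adjusted p = 0.00149, limma). Ifi30, a lysosomal thiol reductase that unfolds antigens, rose by 2.14 ± 0.39 (adjusted p = 0.0045, limma). H2-Oa, a subunit of the H2-O heterodimer that restrains H2-DM, was called higher by 3.22 ± 0.90, with an adjusted p of 0.0647 (limma). Its partner chain H2-Ob, named after its values were seen, was not called, at 5.87 ± 0.60 in naive and 5.41 ± 0.62 in EAE-vehicle microglia.

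Among proteases, Ctsb was called higher by 0.85 ± 0.32 and Ctsd fell by 1.20 on the log2 scale, neither with an adjusted p under 0.05. Ctss was at 14.27 ± 0.27 in naive and 14.30 ± 0.23 in EAE-vehicle microglia, near the ceiling in both. None of the DNA-binding partners of Ciita was called higher. Nfyb, a subunit of NF-Y, fell by 0.84 and Creb1 by 0.83, and Il10ra, a receptor chain for interleukin 10, fell by 1.17, with adjusted p of 0.158, 0.304 and 0.286 (limma).

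Upstream, the interferon-gamma list gave 2 genes called higher and 4 lower of 11 tested in microglia, and its median change was -0.52 on the log2 scale. Irf1, an interferon-induced transcription factor, rose by 2.38 ± 0.62 (adjusted p = 0.0454), and Socs1, a feedback inhibitor, by 2.98 ± 0.64 (adjusted p = 0.0154, limma). Ifngr1, the ligand-binding receptor chain, fell by 2.00 (SE 0.32, adjusted p = 0.00179, limma) from 9.70 ± 0.25 to 7.70 ± 0.45. Irf8, Sp1 and Prdm1, a repressor of Ciita, fell by 0.76, 0.95 and 1.96, none with an adjusted p under 0.05. Ifng itself was listed at 0 in all 15 microglia libraries.

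The second question was whether the RIPK1 inhibitor changed these genes in microglia with EAE. Of the 7 members, 2 were called lower than in EAE-vehicle and none higher, where 0.701% of all genes tested were called lower and 1.06% higher. Of these 2, Cd74 could not have been higher, since all its EAE-vehicle values were at the ceiling. No member had an adjusted p under 0.05 (0.93 or more, limma), as had 0.00345% of all genes. With all 30 libraries in 1 fit neither member was called, with SE of 0.47 for H2-Ab1 and 0.51 for Cd74. The members stayed far above naive in the inhibitor group, with all 7 called higher (5.35% of all genes) and none overlapping naive (2.72% of all genes were higher without overlap). The comparisons with naive share the naive libraries.

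H2-Ab1 was at 12.87, 13.01, 11.64, 12.55 and 11.73 in the inhibitor libraries, against 12.55 to 13.51 in EAE-vehicle. Its log2 fold change was -0.86 ± 0.30 (SE, 95% interval -1.49 to -0.23, p = 0.011, limma), or 1.82-fold lower, with an exact two-sided permutation p of 0.0238. In places, H2-Ab1 was at 6 to 12 in EAE-vehicle and at 9 to 21 with the inhibitor, and each place has a fixed value. Inhibitor libraries 3 and 5 lay below all EAE-vehicle libraries and the others overlapped them. The partner chain H2-Aa was at 11.14, 11.25, 11.04, 11.81 and 11.14, within the range of EAE-vehicle in all 5, and differed by -0.12 (-0.78 to 0.55).

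Cd74 was at 14.48, 14.48, 15.34, 14.48 and 13.71 in the inhibitor libraries and at the ceiling in all EAE-vehicle libraries. Its log2 fold change was -0.84 ± 0.23 (SE, p = 0.00279, limma, exact permutation p = 0.0152). An inhibitor library could only equal the EAE-vehicle values or lie below them, so the ceiling fixed the direction of this call. The EAE-vehicle SD of 0, set by the ceiling, also entered the SE. In places, Cd74 was in place 2 in 3 inhibitor libraries, place 5 in 1 and place 1 in 1. The step from place 1 to place 2 is 0.86 in this table for any gene, so the difference amounts to a change of 1 place in 3 of the 5 libraries. Apoe was in place 1 in inhibitor libraries 1 and 4, Actb in library 2 and Ctss in library 5.

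The remaining members did not separate the groups. H2-Eb1 was at 10.27, 10.06, 10.57, 11.48 and 10.57 (difference -0.01, interval -0.57 to 0.54). H2-DMa differed by 0.06 (-0.22 to 0.34) and H2-DMb1 by -0.18 (-0.50 to 0.13). For both H2-DM genes the interval leaves out a change of 1.5-fold. None of the 25 pathway genes and none of the 11 interferon-gamma genes tested was called.

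Ciita pointed the other way. It was at 3.80, 3.83, 5.37, 6.34 and 5.19 in the inhibitor libraries, so 2 libraries lay within the EAE-vehicle range of 3.78 to 4.40 and 3 lay above it. The difference of 0.82 (interval -0.02 to 1.66, p = 0.0549) was not called, with an exact permutation p of 0.119. Without inhibitor library 1 it was 1.10 and without library 2 it was 1.09, and either passed the cutoff. Without library 4 it was 0.46 and was not called. The SD was 1.09 in the inhibitor group and 0.24 in EAE-vehicle.

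Markers also differed among the microglia libraries of this comparison. Of 10 microglia markers 3 were called higher with the inhibitor (median 0.48), with library means of 7.54 to 8.93 against 7.18 to 7.92 in EAE-vehicle. Of 7 dendritic cell markers 1 was called higher, and none of 9 monocyte and neutrophil markers and none of 9 T cell markers was called. Inhibitor libraries 3 and 5, the lowest for H2-Ab1, differed in their markers. Library 3 had the highest monocyte and neutrophil mean of both groups (8.23, where EAE-vehicle reached 6.95) and the highest T cell mean (2.35, where EAE-vehicle reached 0.95), and library 5 had the highest microglia marker mean (8.93). The part of these cells in the H2-Ab1, Cd74 and Ciita values was not tested.

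**Figure D2:**
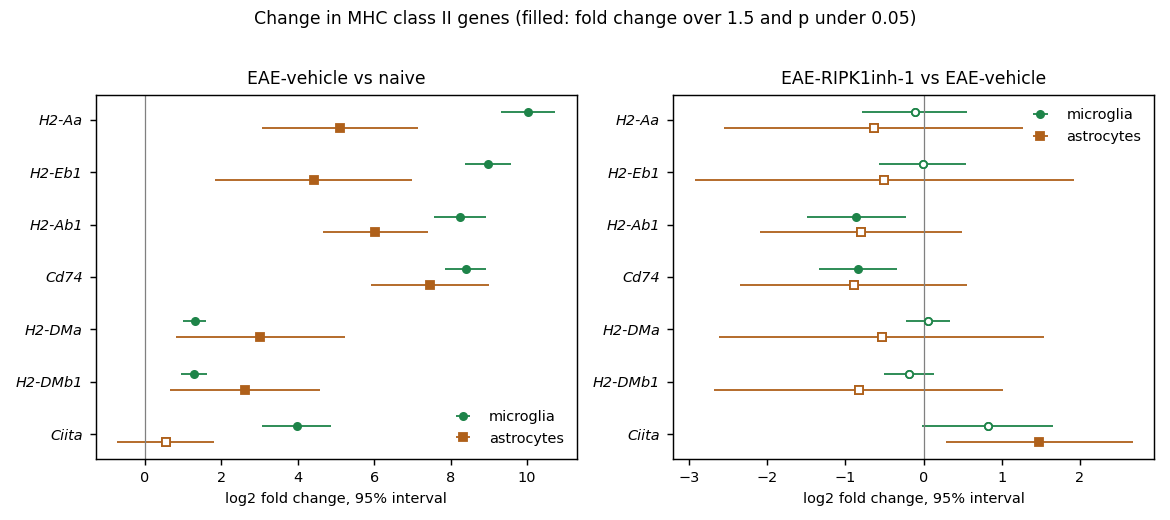
Log2 fold change of each member with its 95% interval (limma), EAE-vehicle against naive on the left and EAE-RIPK1inh-1 against EAE-vehicle on the right, for microglia (circles) and astrocytes (squares). Filled symbols passed the cutoff of fold change over 1.5 and unadjusted p under 0.05. Left, all members except Ciita in astrocytes are filled. Right, only H2-Ab1 and Cd74 in microglia, both lower, and Ciita in astrocytes, higher, are filled. Cd74 could not be higher there, since all its EAE-vehicle microglia values were at the ceiling.

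In astrocytes 6 of the 7 members were called higher in EAE-vehicle than in naive, the exception being Ciita, where 2.69% of the 30718 genes tested were called higher. An adjusted p under 0.05 (limma) was reached by Cd74, H2-Ab1 and H2-Aa (0.342% of all genes, upward), and their groups did not overlap (1.02% of all genes, upward). The median log2 fold change was 4.41 for the members and 0.03 for all genes tested. Naive astrocytes had little class II signal. In library 2 the members other than Ciita lay between 2.46 and 3.19, and in the other libraries no member exceeded the 1.11 of H2-Ab1 in library 3. Library 2 had 8815 genes with signal, the fewest of the naive astrocyte libraries, and genes without signal reached 1.69 there.

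Cd74 was at 0.00, 3.19, 0.00 and 0.01 in naive astrocytes and at 7.05 (lowest), 8.10 (median) and 9.83 (highest) in EAE-vehicle, places 57 to 581. Its log2 fold change was 7.47 ± 0.73 (SE, adjusted p = 7.44e-05, limma). H2-Ab1 was at 0.02, 2.88, 1.11 and 0.00 and then at 6.28, 6.64 and 8.36, a log2 fold change of 6.03 ± 0.64 (adjusted p = 0.000203, limma). H2-Aa was at 0.00, 2.67, 0.00 and 0.00 and then at 3.41, 5.90 and 7.67, a log2 fold change of 5.10 ± 0.96 (adjusted p = 0.0244, limma). EAE-vehicle library 6 was the highest for each of these members.

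H2-Eb1 was listed at 0 in 3 naive libraries and at 2.46 in library 2, and reached 4.98 to 7.05 in 5 EAE-vehicle libraries. In EAE-vehicle library 1, which had the fewest genes with signal, H2-Eb1 had no signal and a value of 0.02. The log2 fold change of 4.41 ± 1.21 had an adjusted p of 0.169 (limma). H2-DMa rose by 3.02 ± 1.04 and H2-DMb1 by 2.61 ± 0.92 by the cutoff, with adjusted p of 0.379 and 0.407 (limma), and each had 1 EAE-vehicle library near 0, library 1 for H2-DMa and library 2 for H2-DMb1. Exact permutation p were 0.0238 for H2-Eb1, 0.0381 for H2-DMa and 0.0429 for H2-DMb1.

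Ciita stayed near 0 in EAE-vehicle astrocytes, with a lowest value of 0.00, a median of 0.67 and a highest of 1.60, against 0.05, 0.00, 0.52 and 0.00 in naive astrocytes. The difference of 0.55 (-0.72 to 1.82) was not called and had an exact permutation p of 0.0905. Values this low overlap those given to genes without signal, so a small change was not detectable in these libraries.

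Markers of infiltrating cells rose in the same astrocyte libraries. Of 9 T cell markers 6 were called higher in EAE-vehicle astrocytes (median log2 fold change 3.65), with library means of 0.61 to 1.29 in naive and 1.45 to 6.08 in EAE-vehicle. Cd2 averaged 0.06 in naive and 5.55 ± 2.32 in EAE-vehicle. Of 8 monocyte and neutrophil markers tested 5 were called higher (median 3.09), with library means of 0.13 to 1.31 and 1.68 to 4.73, while Ly6g was at 0 in all astrocyte libraries. Both lists come from cells that the CD45- and CD11b- gate was meant to remove. Of 7 oligodendrocyte markers 3 were also called higher (median 2.06), with library means of 5.58 to 6.81 in naive and 6.45 to 9.58 in EAE-vehicle. Of 8 astrocyte markers 1 was called higher and 4 lower (median -1.14), with library means of 8.80 to 9.39 and 7.85 to 8.90.

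Markers of microglia, B cells and dendritic cells moved less than these lists. Library means over 5 CNS border macrophage markers were 0.00 to 0.65 in naive and 0.05 to 1.03 in EAE-vehicle astrocytes. Of 10 microglia markers 1 was called higher in astrocytes (median 0.93), with library means of 0.87 to 2.40 in naive and 1.08 to 3.45 in EAE-vehicle. B cell library means were 0.61 to 1.09 and 0.09 to 1.10 and dendritic cell means 0.23 to 0.70 and 0.12 to 1.13, and no marker of either list was called higher. EAE-vehicle library 6 had the highest member mean of its group, 6.59, with the highest monocyte and neutrophil mean, 4.73, and a T cell mean of 4.80. Library 4 had the lowest T cell mean, 1.45, with a member mean of 4.92, and library 5 the highest, 6.08, with a member mean of 4.39. Naive library 2, the naive library with the highest member mean (2.33), had the highest mean of its group for microglia markers (2.40), T cell markers (1.29) and monocyte and neutrophil markers (1.31). The part of these cells in the astrocyte values was not tested.

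**Figure D3:**
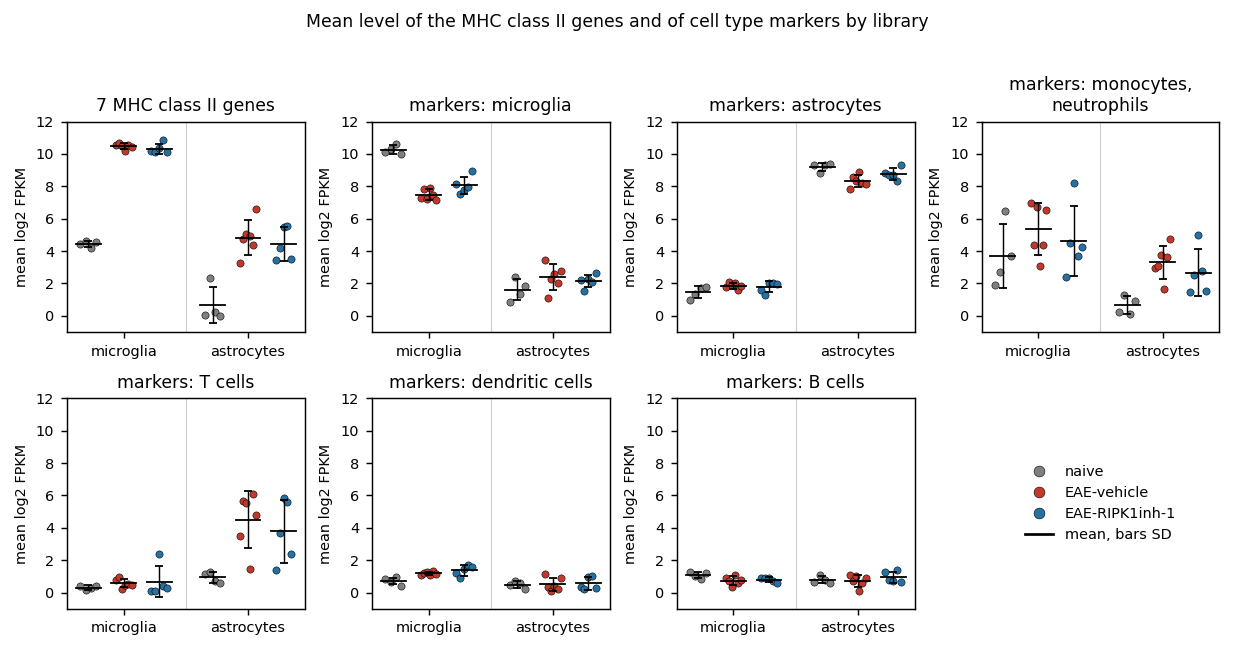
Mean log2 FPKM of the 7 members and of 6 marker lists in each library, by cell type and treatment. Points are libraries, long lines group means and bars SD. In astrocytes the member mean rises from 0.66 ± 1.12 in naive to 4.83 ± 1.07 in EAE-vehicle, T cell and monocyte and neutrophil means also rise, and B cell and dendritic cell means stay at or below 1.37.

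Of the 25 further pathway genes 2 were called higher in EAE-vehicle astrocytes and none lower, with a median log2 fold change of 0.34. Ctss rose by 3.57 ± 0.61 (adjusted p = 0.011, limma) from 3.92 ± 1.66 to 7.50 ± 0.68. Kat2b, an acetyltransferase recruited by Ciita, was called higher by 1.79 ± 0.76 with an adjusted p of 0.604 (limma). H2-Oa, H2-DMb2 and Ifi30 were not called in astrocytes.

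Of 12 interferon-gamma genes 3 were called higher. Irf1 rose by 4.38 ± 0.87 (adjusted p = 0.0368, limma). Irf8 was called higher by 3.40 ± 0.75 (adjusted p = 0.0586, limma), the opposite of its direction in microglia. Monocyte and neutrophil markers also rose in this astrocyte group. The part of such cells in the Irf8 and Ctss values was not tested. Ifng was listed at 0 in all 4 naive libraries and had signal in 5 of 6 EAE-vehicle libraries, at up to 6.61 (adjusted p = 0.315, limma). Ifng is a T cell and natural killer cell cytokine, and the T cell markers given above rose in the same group.

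**Figure D4:**
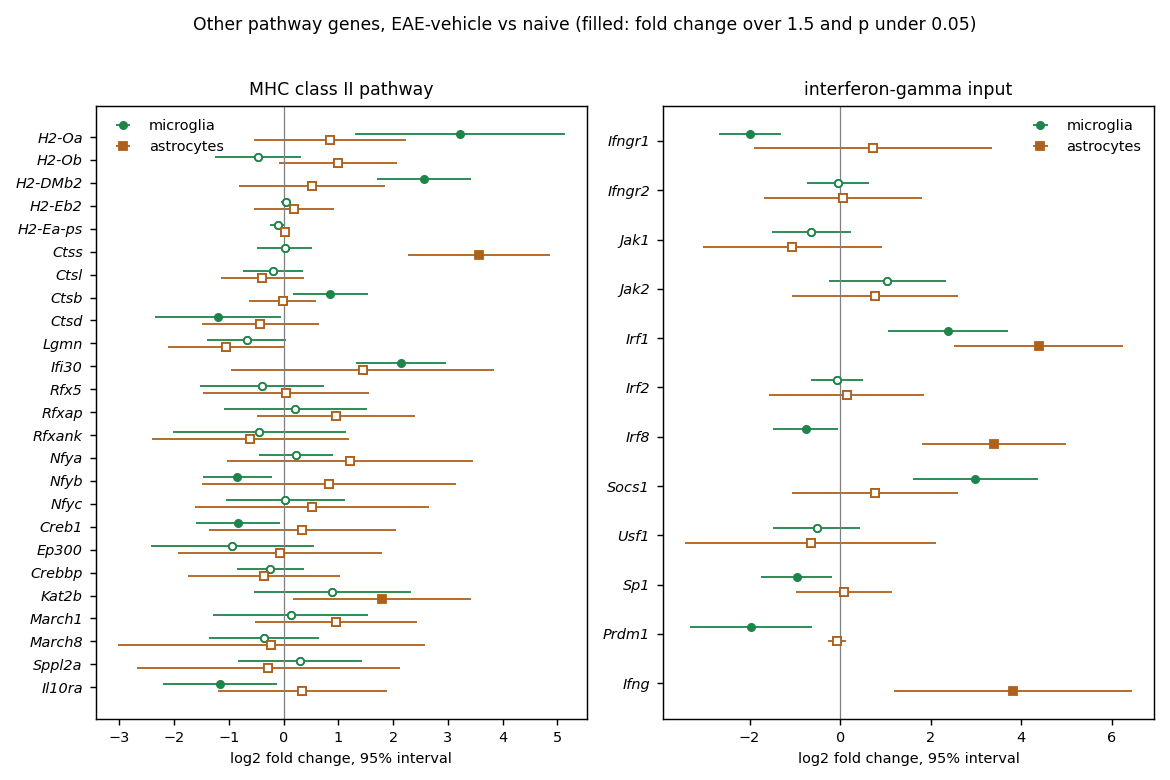
Log2 fold change with 95% interval (limma) of the 25 pathway genes (left) and 12 interferon-gamma genes (right) in EAE-vehicle against naive, for microglia (circles) and astrocytes (squares). Filled symbols passed the cutoff of fold change over 1.5 and unadjusted p under 0.05, and Ifng was not tested in microglia. Irf1 is filled and higher in both cell types, whereas Irf8 is filled on opposite sides of 0.

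With the inhibitor, 1 of the 7 members was called in astrocytes, Ciita, which was higher (1.84% of all genes tested were called higher). It was at 0.65, 1.07, 2.83, 3.50 and 2.79 in the inhibitor libraries, so 3 libraries lay above the highest EAE-vehicle value of 1.60. The log2 fold change was 1.48 ± 0.56 (SE, 0.29 to 2.67, p = 0.0184, adjusted p = 0.84, limma), with an exact permutation p of 0.0368. Without inhibitor library 4 it was 1.15 and no longer called. Of the 3 high libraries, 3 and 4 had T cell marker means of 5.84 and 5.62 and library 5 one of 2.36, within the EAE-vehicle range, and no T cell marker of 9 was called with the inhibitor. Library means over monocyte and neutrophil markers reached 5.01 with the inhibitor and 4.73 in EAE-vehicle, and B cell means 1.37 and 1.10. Dendritic cell means reached 1.05 and 1.13, and microglia marker means 2.65 and 3.45. The part of these cells in the Ciita values was not tested. All 5 inhibitor libraries lay above every naive library for Ciita (0.785% of all genes, upward). The gap was narrow and near the values given to genes without signal. The lowest inhibitor value was 0.65, where genes without signal reached 0.545. The highest naive value was 0.52, where they reached 0.48.

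The inhibitor libraries above the EAE-vehicle range for Ciita were numbered 3, 4 and 5 in both cell types. The difference in the Ciita effect between cell types was -0.66 (interval -2.01 to 0.69) and not called. No label says that equal numbers mean the same mouse.

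The other 6 members had log2 fold changes of -0.89 (Cd74) to -0.50 (H2-Eb1) with the inhibitor in astrocytes, and none was called. Cd74 was at 6.67, 8.20, 8.52, 7.64 and 5.84 and H2-Ab1 at 6.59, 4.93, 7.32, 6.64 and 5.65, both overlapping EAE-vehicle. The intervals were wide, -2.34 to 0.56 for Cd74 and -2.09 to 0.48 for H2-Ab1, so changes of the size called in microglia were not detectable here. Against naive, 6 members were called higher (1.98% of all genes), all but H2-DMb1, and Cd74 and H2-Ab1 had an adjusted p under 0.05 (limma, 0.124% of all genes, upward). H2-DMa lost this call in 6 of the 15 fits without 1 library, and H2-DMb1 gained it in 2. Rfx5, a subunit of RFX, was the only pathway gene called with the inhibitor in astrocytes (1.18% of all genes were called lower) and fell by 1.91 (SE 0.67, adjusted p = 0.84, limma), at 2.15 ± 1.01 in EAE-vehicle and 0.24 ± 0.42 in the inhibitor group.

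The cell types were then set side by side in 1 fit of all 30 libraries. In naive mice 4 members were called higher in microglia than in astrocytes (10.0% of all genes were), H2-DMa by 7.69 ± 0.82 (SE), H2-DMb1 by 7.11 ± 0.72, Cd74 by 6.15 ± 0.60 and H2-Ab1 by 3.97 ± 0.55. H2-Aa, H2-Eb1 and Ciita were not called, at 0.70, 1.01 and -0.02. With an offset of 0.1 in the logarithm H2-Aa (2.40) and H2-Eb1 (3.02) were called. This setting, here and below, assumes that the deposited values were made with an offset of 1, which is not stated. In EAE-vehicle all 7 were called higher in microglia (12.4% of all genes), by 3.40 (Ciita) to 7.07 (Cd74). In EAE-RIPK1inh-1 all 7 were called higher (11.7%), by 2.74 (Ciita) to 7.12 (Cd74).

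For comparison, the 10 microglia markers were higher in microglia than in astrocytes by 2.92 to 7.22 in EAE-vehicle, with a median of 5.20, and the median over the members was 5.79. The order of the group means was the same for H2-Aa, H2-Ab1, H2-Eb1 and Cd74. EAE-vehicle microglia stood first, followed by inhibitor microglia, EAE-vehicle astrocytes, inhibitor astrocytes, naive microglia and naive astrocytes. Neighbours in this order overlapped between the EAE groups of each cell type, and the naive groups overlapped for H2-Aa and H2-Eb1. Inhibitor astrocytes and naive microglia also overlapped for H2-Aa (lowest 2.23 against highest 2.36), H2-Ab1 (4.93 against 5.48) and Cd74 (5.84 against 7.55), and for H2-Eb1 they lay next to each other (2.15 against 2.13). For H2-DMa and H2-DMb1 naive microglia instead stood above both EAE astrocyte groups.

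The EAE effect itself differed between the cell types for 4 members, each larger in microglia, by the interaction term (4.97% of all genes were called in that direction, and 0.604% had an adjusted p under 0.05). The difference was 4.93 ± 1.03 for H2-Aa (adjusted p = 0.0127), 3.42 ± 0.70 for Ciita (adjusted p = 0.0112), 4.56 ± 1.28 for H2-Eb1 (adjusted p = 0.0843) and 2.22 ± 0.71 for H2-Ab1 (adjusted p = 0.162, all limma). Cd74 differed by 0.92 (-0.66 to 2.51), with its microglia value held at the ceiling. H2-DMa and H2-DMb1 differed by -1.71 (-3.89 to 0.46) and -1.33 (-3.24 to 0.59) and were not called. Values near 0 also bear on these differences. Of 4 naive astrocyte libraries, H2-Aa and H2-Eb1 had signal in 1, Ciita in 2 and H2-Ab1 in 3. The rise in astrocytes could thus be understated. With an offset of 0.1 in the logarithm Cd74 turned to -1.56, which was not called. In that setting H2-Eb1 (3.10) and H2-Ab1 (0.42) lost the call, and H2-DMb1 (-3.27) gained it in the opposite direction. With library quality weights H2-DMa (-2.71) and H2-DMb1 (-2.25) gained it, and so they did without naive astrocyte library 2 (-2.33 and -1.95). The inhibitor effect differed between the cell types for none of the 7 members, where 3.15% of all genes were called in either direction. Across all genes of this last comparison no adjusted p was under 0.05 and 1066 genes had an unadjusted p under 0.05 (limma).

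The genes whose level most resembled the mean of the 7 members were found by Pearson r over the 15 libraries of each cell type, as a description. In microglia, among 9697 protein-coding genes with a mean of at least 1, they were Ifi211 (r = 0.995), Il18bp (0.993), Fcgr4 (0.992), Gpx3 (0.991) and Iigp1 (0.989). Iigp1, an interferon-inducible GTPase, was at 0.69 ± 0.78 in naive, 8.55 ± 0.14 in EAE-vehicle and 8.48 ± 0.67 in inhibitor microglia. In astrocytes, among 10407 genes, they were Ifit3 (r = 0.937), Fth1 (0.936), Irgm1 (0.929), Lcn2 (0.926) and H2-T23 (0.923). Lcn2, a marker of reactive astrocytes, was at 0.62 ± 1.21 in naive and 8.65 ± 0.84 in EAE-vehicle astrocytes.

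Each member was also set against the mean of the other 6. In microglia r was 0.936 (Ciita) to 0.997 (H2-Eb1). In astrocytes it was 0.723 (H2-DMb1) to 0.967 (H2-Aa), with Ciita lower at 0.497. These values share libraries and mostly reflect the step from naive to EAE.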

How the data were processed

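RNA-seq of sorted spinal cord microglia and astrocytes was analysed from 30 libraries. cDNA was made with oligo(dT) selection and a SMART-seq2 type protocol and cut with Tn5. Per the study's methods, the authors aligned, quantified and normalized the reads with OmicSoft Array Studio. The deposited values are log2 FPKM, identical after sorting in all 30 libraries, which is quantile normalization. The offset added before the logarithm and the use of strand are not given in the sources used here. The deposited annotation gave gene names, types and positions (GRCm38), equal to GENCODE vM21 for all 7 members.

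Groups followed the titles. limma 3.58.1 (R 4.3.3, trend on) was fitted to the deposited log2 values, unpaired, with the 15 libraries of a cell type in 1 fit, and all 30 in 1 fit for comparisons between cell types. The study's methods name a paired test, but no label gives pairs, so pairing was an alternative. Genes with identical values in all libraries of a fit were left out. Calls used a fold change over 1.5 and unadjusted p under 0.05, with Benjamini-Hochberg values over all genes tested. Exact two-sided permutation tests were run for single members. No filter on low values was used. The fit was tested on simulated data. Depth is unknown, so no counting interval was given. Microglia and astrocytes of the same mice entered the joint fit as independent. Members and lists were chosen with earlier results of these data known. Named genes were the members, list genes called in a main comparison of EAE-vehicle with naive or of inhibitor with vehicle, and the 5 genes most like the members in each cell type. H2-Ea and the dendritic cell marker Clec9a were not found by symbol. Of the interferon-gamma list, 1 gene is not reported here and was left out of its counts.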

Additional observations from a re-analysis of the deposited data

Results flagged for a closer look

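Values far from the rest of their group, by Dixon's criterion at the 95% level, were found in 8 of the 42 groups of member values. No chance rate is given, since many naive astrocyte values were those given to genes without signal. Cd74 in EAE-vehicle microglia, all at the ceiling, could not be flagged. In naive astrocytes library 2 stood apart for H2-Aa (2.67, with 0.00 in the other libraries), H2-Eb1 (2.46), H2-DMb1 (2.50), H2-DMa (2.58, next 0.41) and Cd74 (3.19, next 0.01). These 5 values are from 1 library and are not independent. In naive astrocytes library 3 stood apart for Ciita at 0.52, next 0.05, where genes without signal in library 3 reached 0.48. In EAE-vehicle astrocytes H2-Eb1 was far below the others in library 1, at 0.0244 with 4.98 next, and it had no signal there. In EAE-RIPK1inh-1 microglia H2-Aa was highest in library 4, at 11.81 with 11.25 next.

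The change from naive to EAE-vehicle was larger in microglia than in astrocytes for H2-Aa (by 4.93), H2-Eb1 (by 4.56), Ciita (by 3.42) and H2-Ab1 (by 2.22), each past the cutoff by the interaction term of the fit over all 30 libraries. H2-Eb1 and H2-Ab1 lost the call with an offset of 0.1, and naive astrocytes had little signal for these genes.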

How the results depend on the processing

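Low values follow row order, the top is capped, depth is unknown, and the cell types share mice. At an adjusted p under 0.05 (limma) the members called numbered 0 for the inhibitor against vehicle in microglia and 0 in astrocytes, 3 for EAE-vehicle and 2 for EAE-RIPK1inh-1 against naive in astrocytes, and 2 for the difference in the EAE effect. With all 30 libraries in 1 fit the inhibitor count in microglia was 0. The cause was not tested beyond the larger error of that fit. Signs turned only for values that were not called. With quality weights these were H2-Aa (0.0300) and H2-Eb1 (0.222) for the inhibitor in microglia and Cd74 (-0.459) for the difference in its effect. With an offset of 0.1 they were Ciita in naive microglia against astrocytes (0.0275) and Cd74 in the difference of the EAE effect (-1.56), which was -0.000513 without the 3 libraries of under 9000 genes with signal. With centring on shared genes they were H2-Eb1 for the inhibitor in microglia (0.0603) and Ciita between naive cell types (0.0777). Both latter settings were chosen after seeing the data. Centring also moved the genes called higher with the inhibitor from 308 of 511 to 467 of 610 in microglia and from 564 of 927 to 760 of 1036 in astrocytes. Centring on the median of all values above 0 changed nothing, since these medians are equal.

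Leaving out 1 library at a time, the members called ranged from 0 to 1 for the inhibitor in astrocytes, 2 to 3 for it in microglia, 5 to 7 for EAE-RIPK1inh-1 against naive in astrocytes and 4 to 6 for the difference in the EAE effect. With the inhibitor in microglia H2-Eb1 ranged from -0.236 to 0.119 and H2-DMa from -0.0136 to 0.110, and in astrocytes H2-Aa ranged from -1.11 to 0.0871 and H2-Eb1 from -1.50 to 0.0943. Ciita between naive cell types ranged from -0.0705 to 0.103. The difference in the inhibitor effect ranged from -0.202 to 0.993 for H2-Aa, -0.383 to 0.214 for H2-Ab1, -0.108 to 1.49 for H2-Eb1 and -0.333 to 0.337 for Cd74.

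With the replicate number as a block, H2-Aa rose by 10.06 in EAE-vehicle microglia, with 7 members called. Same-numbered microglia and astrocyte libraries had deviations correlated at -0.0352 to 0.125, and 5 of 15 correlated best with their own number, so the numbers were not shown to pair the mice.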
